A study of Mus musculus with 6 samples.

Results

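Peaks of open chromatin in 2 ancient repeat families, MIR and L2, were examined in leukaemia cells of mice given oil or tamoxifen. A peak was taken as a member when its detailed annotation named a MIR element (class SINE) or an L2 element (class LINE) and its broad annotation placed it in an intron or in intergenic sequence. This gave 1841 of the 175929 peaks in the table, or 1.31% of the 140013 intron and intergenic peaks. The members were 1100 MIR and 741 L2 peaks, 1118 in introns and 723 in intergenic sequence. By subfamily they were 395 MIRb, 352 MIR, 188 MIRc, 165 MIR3, 230 L2a, 229 L2, 160 L2b and 122 L2c peaks, and every MIR or L2 peak of the table met the rule.

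All 6 libraries came from AE9a leukaemia cells, fetal liver cells given a shortened AML1-ETO oncoprotein by a retrovirus that also encodes GFP. The cells also carried 1 floxed Usp18 allele and a tamoxifen-inducible Cre active in all tissues, and were grown in irradiated young adult C57BL/6 mice of both sexes that had become sick before treatment. GFP+ Lin- c-Kit+ cells were taken from the spleen by sorting 3 days after the first injection and profiled by ATAC-seq, in which a transposase cuts accessible DNA. Oil-treated cells (libraries 1, 2 and 4) kept Usp18+/f, and tamoxifen-treated cells (libraries 1, 3 and 4) were Usp18+/Δ. Both groups carried the floxed allele, the Cre and the oncogene, and since only the second group received the drug, the drug and the deletion cannot be told apart. Per the study's methods the cells of each group came from 3 mice, and no label ties a library to a mouse.

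MIR elements are short interspersed repeats derived from tRNA genes that do not encode their own enzymes and were copied by the machinery of L2, a long interspersed repeat. Both stopped moving long ago, so the remaining copies are old, diverged and found across mammals. Some copies are known to act as enhancers or to bind transcription factors, and a few conserved microRNAs arose from them.

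The libraries held 57.4 M to 74.7 M tags, of which 17.5 M to 21.1 M lay in peaks, and a member held a median of 38 to 49 tags per library. The 6 blast markers all had a peak within 1000 bp of their start site. Their summed level was 2402 to 2459 normalised tags in oil and 2466 to 2807 in tamoxifen libraries, so the groups did not overlap. Of 8 T cell markers, 4 had such a peak, with a sum of 144 to 161 normalised tags in oil and 128 to 156 in tamoxifen libraries, and Cd3e, Cd3d, Cd4 and Cd8a had none. Of 7 mature myeloid markers, 4 had one, with a sum of 171 to 177 in oil and 178 to 184 in tamoxifen libraries, so the groups did not overlap, and Ly6g, Ltf and Camp had none. The part of these cells in the results was not tested. Of 7 erythroid markers, 6 had a peak within 1000 bp of their start site and Hbb-bs had none. Their sum was 1790 to 2009 normalised tags in oil and 1755 to 1833 in tamoxifen libraries. The peak at the Usp18 start site held 438 ± 21.8 normalised tags in oil and 449 ± 17 in tamoxifen libraries (SD, n = 3), and an open start site does not check the deletion.

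The sequences below, from the plus strand of the mm10 reference, are the central 200 bp of 2 members chosen after their sequences were seen because they held the most of the 10-letter words shared within each family, with those words in capitals.
MIRc near Lincred1, chr2:103894713-103894912: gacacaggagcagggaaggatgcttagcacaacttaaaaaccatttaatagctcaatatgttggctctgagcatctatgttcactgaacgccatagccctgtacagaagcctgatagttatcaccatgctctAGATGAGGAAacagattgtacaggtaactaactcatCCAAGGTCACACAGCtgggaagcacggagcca
L2c near Plcg1, chr2:160729514-160729713: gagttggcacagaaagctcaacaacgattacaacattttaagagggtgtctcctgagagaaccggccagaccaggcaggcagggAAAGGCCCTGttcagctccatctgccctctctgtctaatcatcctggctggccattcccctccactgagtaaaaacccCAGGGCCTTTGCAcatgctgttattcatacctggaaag
The next 6 are members whose tags carry the results. Capitals mark the GATA motif AGATAA and the RUNX motif TGTGGT on either strand; the searched AP-1 and ETS motifs did not occur in them. Nek6, Hpcal1, Ly96 and Cped1 name 4 of the 5 higher calls with the smallest adjusted p, the L2b peak is the lower call and also the highest L2 peak, and the peak near Pdcd4 is the highest MIR peak.
MIRb near Nek6, chr2:38533372-38533571: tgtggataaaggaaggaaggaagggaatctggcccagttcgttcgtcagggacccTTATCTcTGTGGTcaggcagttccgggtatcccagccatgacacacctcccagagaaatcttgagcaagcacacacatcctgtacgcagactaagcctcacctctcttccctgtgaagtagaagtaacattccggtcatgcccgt
MIR3 near Hpcal1, chr12:17715808-17716007: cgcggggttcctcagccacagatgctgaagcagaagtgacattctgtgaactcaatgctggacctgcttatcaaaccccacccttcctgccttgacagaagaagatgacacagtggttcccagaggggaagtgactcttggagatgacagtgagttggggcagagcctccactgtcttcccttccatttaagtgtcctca
L2 near Ly96, chr1:16703352-16703551: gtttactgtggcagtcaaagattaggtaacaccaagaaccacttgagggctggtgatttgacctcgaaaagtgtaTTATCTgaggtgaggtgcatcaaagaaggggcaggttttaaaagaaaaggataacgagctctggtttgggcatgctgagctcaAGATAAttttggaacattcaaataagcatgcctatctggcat
MIR near Cped1, chr6:22135083-22135282: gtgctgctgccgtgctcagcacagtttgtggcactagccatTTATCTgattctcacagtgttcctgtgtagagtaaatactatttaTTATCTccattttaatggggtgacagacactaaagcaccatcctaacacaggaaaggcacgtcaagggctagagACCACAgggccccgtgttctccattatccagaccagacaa
L2b near 1700001K19Rik, chr12:110678847-110679046: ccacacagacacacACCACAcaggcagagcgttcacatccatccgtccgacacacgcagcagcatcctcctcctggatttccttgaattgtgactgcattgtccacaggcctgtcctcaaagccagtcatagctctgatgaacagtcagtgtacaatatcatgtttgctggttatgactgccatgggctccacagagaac
MIRb near Pdcd4, chr19:53802154-53802353: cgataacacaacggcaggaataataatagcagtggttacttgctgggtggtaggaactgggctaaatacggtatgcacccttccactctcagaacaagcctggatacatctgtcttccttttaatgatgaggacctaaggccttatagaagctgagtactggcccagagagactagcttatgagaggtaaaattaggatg

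MIR and L2 peaks held the GATA motif more often than other open chromatin. The letters AGATAA, bound by GATA factors of blood stem, erythroid and mast cells, were found in the central 200 bp of 533 of 1841 members (29%), that is, in 31.4% of MIR and 25.4% of L2 peaks. The share was 18.1% in peaks outside repeats, 12.1% in rodent SINE peaks, 23.4% in LINE L1 peaks and 17.1% over all intron and intergenic peaks. Among subfamilies it ran from 20% in L2b to 34.2% in MIRb. These are shares of peaks and carry no test.

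Other motifs differed less or in the other direction. The RUNX motif TGTGGT, bound by the factor whose gene is fused in this leukaemia, was in 18% of members, 18.7% of peaks outside repeats and 31.4% of rodent SINE peaks. The ETS motif GAGGAAGT was in 5.65% of members against 3.66% outside repeats, the C/EBP motif TTGCNNAA in 9.89% against 7.2%, and the AP-1 motif TGANTCA in 8.37% against 7.49%. The interferon response motif GAAANNGAA was in 6.63% of members against 5.56% outside repeats. CTCF, the insulator protein, had its core motif in 1.63% of members against 5.3% outside repeats, and the NF-kB motif was in 3.2% against 5.04%. The CTCF share was also low in rodent SINE (2.73%) and LINE L1 peaks (1.97%), and was 5.62% in L2b peaks. The NF-kB share was 1.46% in rodent SINE and 4.49% in LINE L1 peaks. The heat shock element TTCNNGAA was in 5.16% of members and 5.13% of peaks outside repeats. The nuclear receptor half-site AGGTCA, added after the shared MIR words were seen, was in 17.4% of members and 12.1% outside repeats.

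**Figure D1:**
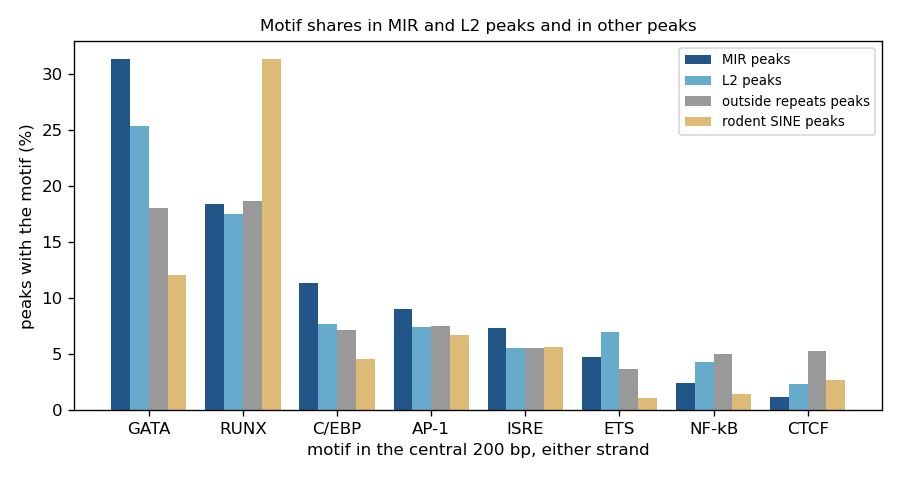
Share of peaks, in percent, with each motif in the central 200 bp on either strand, for MIR, L2, outside-repeat and rodent SINE peaks. GATA stands at 31.4% in MIR and 25.4% in L2 peaks against 18.1% outside repeats. CTCF is the reverse, at 5.3% outside repeats, and is also low in rodent SINE peaks (2.73%).

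Members with the GATA motif were more open than members without it, in every library. The gap in median log2 level, with minus without the motif, was 0.39, 0.34 and 0.39 in oil libraries 1, 2 and 4 and 0.35, 0.30 and 0.47 in tamoxifen libraries 1, 3 and 4. Its mean was 0.37 ± 0.058 (SD, n = 6; exact two-sided sign permutation p = 0.03125, the smallest that 6 libraries allow). Outside repeats the gap averaged 0.14 ± 0.064, and the members' gap exceeded it by 0.19 to 0.29 in all 6 libraries (exact sign permutation p = 0.03125). Members with the motif had a median width of 267 bp and GC content of 46.5%, against 261 bp and 49.5% without it, and the part of these differences in the level was not tested. The erythroid markers given above, whose ranges overlap between the groups, also belong to GATA-dependent cells, and their part in this level was not tested. The GATA comparison was chosen after the shares were seen.

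**Figure D2:**
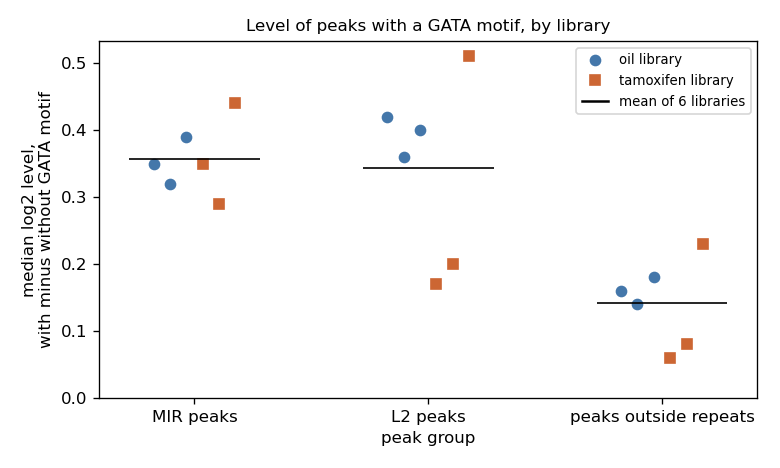
Difference in median log2 level between peaks with and without the GATA motif, 1 point per library (oil circles, tamoxifen squares), with a line at the mean of 6 libraries. All points lie above 0, and the means are 0.36 for MIR, 0.34 for L2 and 0.14 for peaks outside repeats.

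The 30 members with a CTCF motif were also more open, by 1.15 ± 0.081 on the log2 scale (SD, n = 6; exact sign permutation p = 0.03125), against 0.92 ± 0.065 outside repeats. The gap was 0.84 for the 13 MIR peaks with the motif and 1.26 for the 17 L2 peaks. As for the GATA gap, the SD and p describe how 6 libraries vary over the same peaks, not the spread among peaks. Members with the RUNX motif were more open by 0.08 to 0.09 in the oil libraries and by 0.14, 0.25 and 0.21 in tamoxifen libraries 1, 3 and 4. The tamoxifen minus oil difference of that gap was 0.12 in members and 0.08 outside repeats, each with an exact permutation p = 0.1, which is the smallest 3 libraries against 3 can give. In the fit described below, 40 of the 332 members with the RUNX motif were higher (12%) and 5 lower (1.51%) at an unadjusted p under 0.05, near the 11.3% and 1.85% of peaks with the motif outside repeats. The shift was not particular to RUNX. For AP-1 the tamoxifen minus oil difference was 0.16 in members and 0.07 outside repeats (exact permutation p = 0.1 each). For the other motifs it ran from -0.04 (NF-kB) to 0.08 (ETS and interferon response) in members. With the ETS motif, 14.4% of members were higher at an unadjusted p under 0.05, against 13.1% outside repeats.

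MIR peaks also shared longer words. The word whose share differed most from peaks outside repeats, gctgtgtgac, was in 37 MIR peaks (3.36%), in 0 L2 peaks and in 0.18% of peaks outside repeats. Any of the 10 words that differed most from peaks outside repeats was in 181 of 1100 MIR peaks (16.5%), 1.48% of L2 peaks and 1.55% of peaks outside repeats. L2 peaks shared less, and their first word, gcaaaggccc, was in 12 L2 peaks (1.62%) and 0.098% of peaks outside repeats. The words were picked for being frequent in these windows, so the shares describe the choice.

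Within 500 bp of the centre, 247 MIR peaks held at least 1 of the 10 MIR words, and the nearest word lay a median of 40 bp from the centre. In 144 of them (58.3%) it lay within 50 bp. Because the words were chosen in the central 200 bp, their closeness to the centre partly follows from that choice.

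**Figure D3:**
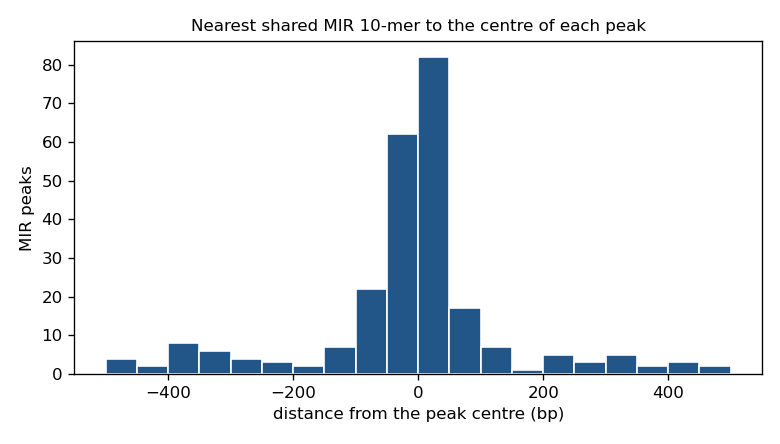
Histogram of the distance, in base pairs, from the centre of each of 247 MIR peaks to the nearest of 10 shared words, in bins of 50 bp. In 144 peaks the word lies within 50 bp of the centre.

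A pair of these words differed at 1 base. The word agataaggaa holds the GATA motif and agatgaggaa does not; with positions counted from the 5′ end of the word, the change from the second to the first is G5A. In copies that resembled the surrounding MIR stretch, with at most 3 mismatches in 9 flanking bases, 48 of 832 genome copies with A lay in a peak (5.77%), against 42 of 1685 with G (2.49%). These are peaks of any kind, and MIR peaks held 15 of the copies with A (1.8%) and 10 with G (0.593%). Over all copies of the 10 letters, whatever their flanks, the shares were closer, 3.5% with A and 2.9% with G. Of the copies with matching flanks, those with C lay in a peak in 2.77% and with T in 1.28% of cases. Over the genome, 2.01% of all AGATAA copies and 1.52% of AGATGA copies lay in a peak. The flanks were taken from 58 copies that lay in MIR peaks, so the copies are not independent of the peaks and no test was made.

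Members held slightly fewer tags per peak than peaks outside repeats and more than younger repeats. The median level of members was 42.8 normalised tags, against 47.8 for peaks outside repeats, 36.9 for rodent SINE and 39 for LINE L1 peaks. Within each library the members' median log2 level was 0.12 to 0.18 below that of peaks outside repeats, a mean difference of -0.15 ± 0.022 (SD, n = 6; exact sign permutation p = 0.03125). Against rodent SINE peaks it was higher by 0.15 to 0.26, and against LINE L1 peaks by 0.10 to 0.15, both in 6 of 6 libraries (exact sign permutation p = 0.03125 each). Per 100 bp of peak the gap to peaks outside repeats was -0.19. The gap to rodent SINE peaks was 0.07, from 0.00 to 0.14 over the libraries. That to LINE L1 peaks was 0.04, from 0.00 to 0.07 (exact sign permutation p = 0.0625). As for the motif gaps, the SD and p describe how 6 libraries vary over the same peaks, not the spread among peaks.

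The share of tags that fell in members overlapped between the groups. Members held 0.655%, 0.653% and 0.676% of the tags in peaks in oil libraries 1, 2 and 4, and 0.65%, 0.642% and 0.692% in tamoxifen libraries 1, 3 and 4. The means were 0.661% ± 0.0131 and 0.661% ± 0.0272 (SD, n = 3; exact permutation p = 1), and the tamoxifen values lay on both sides of the oil values.

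Few members were called between oil and tamoxifen, and all but 1 of those called were more open after tamoxifen. In a DESeq2 fit of all peaks, 18 of 1841 members (0.978%) were called at an adjusted p under 0.05 and a fold change over 2, against a background of 0.654% over all peaks. Of these, 17 were higher after tamoxifen (background 0.588%) and 1 lower (background 0.0659%). With no fold limit, 33 members passed (background 1.39%), 30 of them higher and 3 lower. At an unadjusted p under 0.05, 135 members were higher (7.33%, background 6.18%) and 50 lower (2.72%, background 2.84%). The groups did not overlap in 257 members with more tags after tamoxifen (14%, background 11.9%) and in 179 with fewer (9.72%, background 10%). These shares stand near the background.

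The calls fell in both families, 9 in MIR (0.818% of MIR peaks) and 9 in L2 (1.21% of L2 peaks). The share called was 0.654% over all peaks, 0.777% outside repeats, 0.247% in rodent SINE and 1.11% in LINE L1 peaks. The median log2 fold change of members was -0.02, with 0.00 in MIR and -0.03 in L2, against 0.01 in peaks outside repeats and -0.07 in rodent SINE peaks. In MIR3, the highest of the 8 subfamilies and singled out for that, it was 0.09, and 27 of 165 MIR3 peaks (16.4%) had an unadjusted p under 0.05, 22 of them higher, against 10% of all members and 9.02% of all peaks. Introns held 16 of the 18 calls (1.43% of intron members) and intergenic sequence 2 (0.277%), and none lay within 3000 bp of a start site, where 357 members were found. With no fold limit these differences were smaller or gone, with 20 of 1118 intron members (1.79%), 13 of 723 intergenic members (1.8%) and 3 of the 357 near a start site (0.84%) past the adjusted p. The same shares over all intron, intergenic and near-start peaks were not taken, so whether the split is particular to members was not tested.

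**Figure D4:**
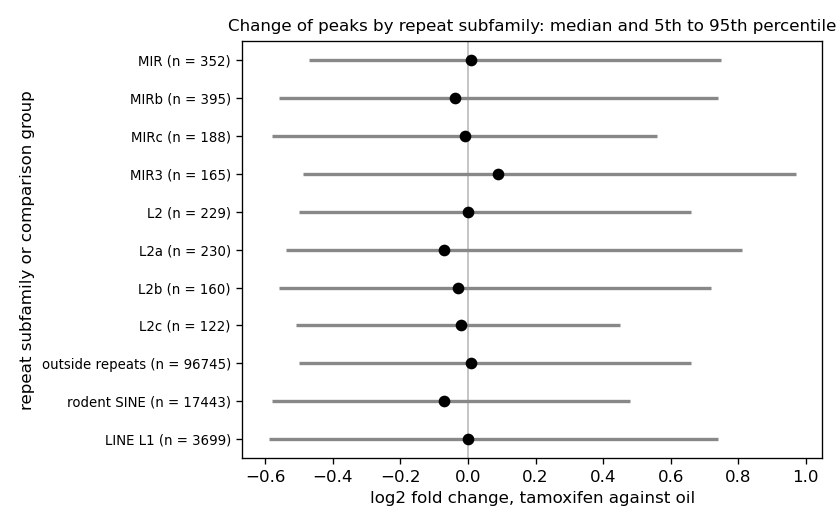
Median (point) and 5th to 95th percentile (line) of the log2 fold change, tamoxifen against oil, for each MIR and L2 subfamily and 3 comparison groups, with n peaks. Medians lie between -0.07 and 0.09, and MIR3 has the highest.

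The higher call with the smallest adjusted p was a MIRb peak in intron 1 of 9 of Nek6, a kinase of mitosis, at chr2:38533342-38533601. It held 51.3, 40.5 and 53.8 normalised tags in oil libraries 1, 2 and 4 and 130.0, 158 and 173 in tamoxifen libraries 1, 3 and 4. All tamoxifen values lay above all oil values, with a log2 fold change of 1.66 (SE 0.213, DESeq2 adjusted p = 2.61e-11). Of 10 other peaks within 10000 bp, 7 were called and all 10 had more tags after tamoxifen. Its sequence, shown above, holds 1 GATA and 1 RUNX motif close together.

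A MIR3 peak in intron 1 of 3 of Hpcal1, a calcium sensor gene, at chr12:17715767-17716048, held 89.4, 84.8 and 106 normalised tags in oil and 208, 323 and 168 in tamoxifen libraries. Library 3 was the highest of the tamoxifen libraries and the groups did not overlap (log2 fold change 1.31, SE 0.208, DESeq2 adjusted p = 4.16e-07). An L2 peak in intron 3 of 4 of Ly96, which encodes the MD-2 partner of the lipopolysaccharide receptor, at chr1:16703249-16703654, held 64, 79.5 and 95.4 normalised tags in oil and 201, 167 and 156 in tamoxifen libraries. Its log2 fold change was 1.13 (SE 0.19, DESeq2 adjusted p = 2.95e-06), and its window holds 2 GATA motifs.

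A MIR peak in intron 11 of 21 of Cped1, at chr6:22135028-22135337, held 35.9, 43.9 and 46.6 normalised tags in oil and 109, 105 and 105 in tamoxifen libraries. The tamoxifen values were close together (SD 2.59), and no other peak lay within 10000 bp (log2 fold change 1.33, SE 0.231, DESeq2 adjusted p = 6.15e-06). A MIR3 peak in intron 6 of 9 of Asb2, a subunit of a ubiquitin ligase, held 87.7, 78.5 and 72.1 normalised tags in oil and 159, 229 and 126 in tamoxifen libraries (log2 fold change 1.11, SE 0.214, DESeq2 adjusted p = 0.000102). The file gives Fam181a as its nearest gene. An L2a peak in Grik5, a glutamate receptor subunit, held 58.5, 51.2 and 69.9 normalised tags in oil and 129, 139 and 107 in tamoxifen libraries. Its log2 fold change was 1.05 (SE 0.214, DESeq2 adjusted p = 0.000314).

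The largest change among the calls, a log2 fold change of 2.01, was in a MIR3 peak in intron 6 of 11 of Babam2, a member of complexes that act on DNA damage. It held 6.07, 11.7 and 10.8 normalised tags in oil and 29.5, 46.2 and 42.8 in tamoxifen libraries, so the oil values were few (SE 0.431, DESeq2 adjusted p = 0.00083). An L2c peak in intron 4 of 9 of Adck1 also started low, at 7.17, 15.1 and 9.86 normalised tags in oil and 38.2, 40.1 and 35.4 in tamoxifen libraries (log2 fold change 1.82, DESeq2 adjusted p = 0.00293). An L2 peak in intron 3 of 5 of Ccnjl held 26.5, 22.9 and 18.8 in oil and 57.5, 63.5 and 56.3 in tamoxifen libraries (log2 fold change 1.38, DESeq2 adjusted p = 0.00188). The Babam2, Adck1 and Ccnjl peaks were listed in the tamoxifen peak set alone. They were thus included only through the group where they were high. A MIR peak in intron 21 of 27 of Abcb4, a phospholipid transporter of bile, held 94.3, 80 and 84.2 in oil and 185, 229 and 106 in tamoxifen libraries, with library 4 just above the oil values (log2 fold change 1.01, DESeq2 adjusted p = 0.00198).

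On chromosome 18, L2a peaks in introns of Nedd4l, a ubiquitin ligase, and Ldlrad4, a brake on TGF-beta signalling, had log2 fold changes of 1.08 and 1.04 (DESeq2 adjusted p = 4.78e-06 and 0.00195). The other 5 calls were named after their values were seen. They lay near 4930534H03Rik (L2), Nr3c1, the glucocorticoid receptor gene (L2a), St3gal1 (MIRc), Pla2g2f (MIR) and Samd4 (MIRb), with log2 fold changes from 1.01 to 1.69. The St3gal1, Pla2g2f and Samd4 peaks were also listed in the tamoxifen peak set alone. Over the 17 higher calls, tamoxifen library 4 was the lowest tamoxifen library in 11 and library 3 the highest in 11.

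**Figure D5:**
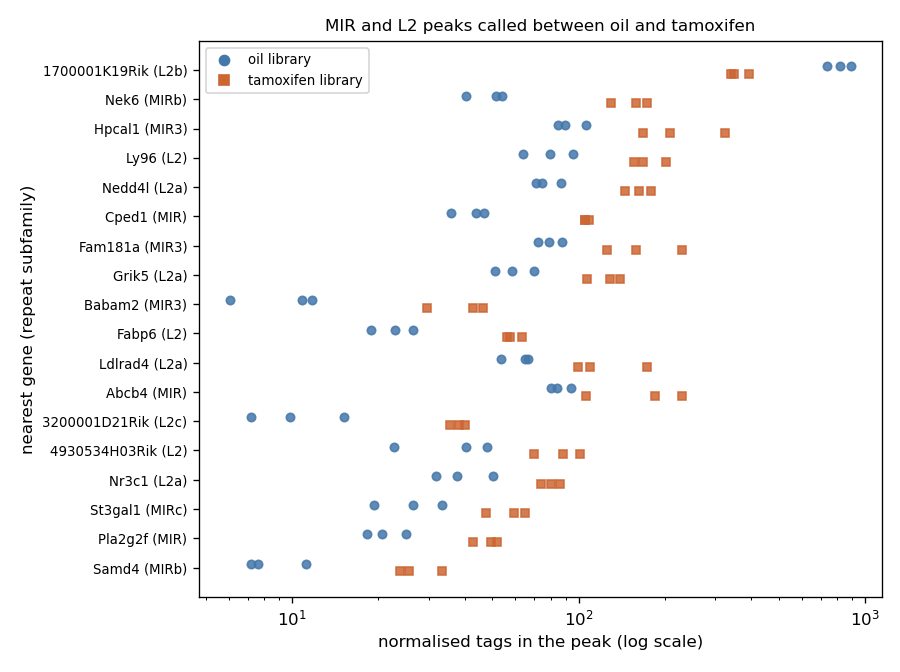
Normalised tags (log scale) of the 18 called MIR and L2 peaks in each library, oil as circles and tamoxifen as squares, ordered by adjusted p. The groups do not overlap in any of them, and 1 peak, L2b near 1700001K19Rik, is higher in oil.

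The 1 lower call was an L2b peak at chr12:110678651-110679242, annotated to intron 1 of 5 of 1700001K19Rik. It held 738, 814 and 892 normalised tags in oil libraries 1, 2 and 4 and 349, 392 and 340.3 in tamoxifen libraries 1, 3 and 4. It was the L2 peak with the highest mean, and the groups lay far apart (log2 fold change -1.18, SE 0.101, DESeq2 adjusted p = 9.6e-27). It lies 11794 bp past the 3′ end of Hsp90aa1, which encodes the inducible HSP90 chaperone. All 32 other peaks within 10000 bp had fewer tags after tamoxifen, and 7 of them were called.

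A second L2 peak near a chaperone gene fell too. An L2a peak at chr8:83617167-83617673, 4514 bp past the 3′ end of Dnajb1, which encodes an HSP40 co-chaperone, held 379, 364 and 438 normalised tags in oil and 252, 199 and 213 in tamoxifen libraries. The groups did not overlap (log2 fold change -0.83, SE 0.128, DESeq2 adjusted p = 1.38e-07), and the change was under 2-fold. An L2c peak 19597 bp past the 3′ end of Hsp90ab1 held 89.9 normalised tags in oil and 73.6 in tamoxifen libraries (log2 fold change -0.29, DESeq2 adjusted p = 0.798). These distances came from a search only past the 3′ ends of heat shock genes, so the shared side follows from the search.

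Of 3 members whose nearest gene was on a list of 20 heat shock genes, the Dnajb1 peak was the only one past an adjusted p of 0.05. Other gene lists held no member past an unadjusted p of 0.05 in either direction, a level that 9.02% of all peaks passed. They were 22 members near 12 of 40 blood regulators, with a median log2 fold change of 0.08, 7 members near p53 damage genes (-0.30), 3 near NF-kB inflammatory genes (-0.04) and 1, near Parp14, among 40 interferon-stimulated genes (-0.35). With so few members, the lack of any past that p says little about these lists. The Parp14 peak, and the Kit peak given below, were listed in the oil peak set alone. Both were thus included only through the group where they were high. Runx1, the partner of ETO in the fusion, was the nearest gene of 5 members, with log2 fold changes of -0.06 to 0.44. An L2a peak 38913 bp before the start of Kit, which encodes the receptor used in the sort, held 60.2 ± 10.1 normalised tags in oil and 40.7 ± 13.6 in tamoxifen libraries (SD, n = 3; DESeq2 adjusted p = 0.555). The members with the smallest p on the other lists, MIRb peaks near Phlda3, Nfkb1 and Parp14, held 173 ± 10.6, 336 ± 21.8 and 35.7 ± 3.98 in oil and 107 ± 48, 298 ± 10.6 and 27.6 ± 12.4 in tamoxifen libraries (SD, n = 3; DESeq2 adjusted p = 0.561, 0.763 and 0.91).

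A few members passed the adjusted p with a change of under 2-fold. A MIRb peak 73146 bp before the start of Noct, a gene of daily rhythm, held 138, 134 and 125 normalised tags in oil and 266, 276 and 235 in tamoxifen libraries (log2 fold change 0.97, SE 0.146, DESeq2 adjusted p = 6.11e-08). An L2b peak near Jun, a subunit of AP-1, held 114, 98 and 125 in oil and 171, 211 and 173 in tamoxifen libraries (log2 fold change 0.71, DESeq2 adjusted p = 0.00453). In all, 15 members passed the adjusted p but not the fold limit.

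The highest members showed no call but the L2b peak. A MIRb peak in intron 1 of 13 of Rbm20 (nearest gene Pdcd4) held 837 ± 48.4 normalised tags in oil and 675 ± 127 in tamoxifen libraries (SD, n = 3; DESeq2 adjusted p = 0.17). MIRb peaks near Brd2 and Phactr4 held 654 ± 43 and 625 ± 31.5 in oil and 556 ± 179 and 528 ± 66.5 in tamoxifen libraries (DESeq2 adjusted p = 0.941 and 0.363). L2 peaks near Ywhaz and C730036E19Rik held 562 ± 26.8 and 499 ± 32.1 in oil and 588 ± 36.6 and 495 ± 42.8 in tamoxifen libraries (DESeq2 adjusted p = 0.954 and 0.998).

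Called members often stood beside other called peaks. In 9 of 18 (50%) at least 1 other called peak lay within 10000 bp, against 379 of 1132 (33.5%) of the other called peaks, and 3 called members had no other peak in that distance. This is a description with no test.

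Members were spread unevenly over the chromosomes, from 0.619% of intron and intergenic peaks on chromosome 13 (31 members) to 2.18% on chromosome 4 (181 members). Members were listed in the oil and tamoxifen peak sets together in 64.4% of cases, against 71.4% of all peaks. They were in the oil set alone in 21.4%, against 17.4% of all peaks, and in the tamoxifen set alone in 14.2%, against 11.2%. The 394 members of the oil set alone had a median log2 fold change of -0.28 and the 261 of the tamoxifen set alone 0.35, which the sets' own peak calling fixes in part. The tamoxifen set alone held 6 of the higher calls (2.3% of its 261 members), and the oil set alone held 0 calls. The direction of those 6 calls follows in part from that set, and the share called over all its peaks was not taken.

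The calls depended on single libraries. Only 3 of the 18, those in Nek6, Cped1 and the L2b peak, were called whichever library was left out. The number of members called ranged from 6 without tamoxifen library 3 to 44 without tamoxifen library 4, and was 8 without oil library 2, 11 without tamoxifen library 1, and 12 without oil library 1 or 4. Hpcal1 lost its call without oil library 1 (adjusted p = 0.0981) or 2 (adjusted p = 0.105), by DESeq2. Ly96 and Nedd4l fell to the fold limit, at a log2 fold change of 1.00, without oil library 1 and tamoxifen library 1. Asb2, listed under Fam181a, went to 0.84 without tamoxifen library 3, Grik5 to 0.94 without oil library 2 and 0.97 without tamoxifen library 3, and Abcb4 lost its call without oil library 2 or 4 or tamoxifen library 1 or 3. Ccnjl, listed under Fabp6, missed the adjusted p without oil library 4 (DESeq2 adjusted p = 0.0767) or tamoxifen library 3 (DESeq2 adjusted p = 0.071), and Ldlrad4 without oil library 2 (DESeq2 adjusted p = 0.0753) or tamoxifen library 3 (DESeq2 adjusted p = 0.27). The low peaks in Babam2, in Adck1 (listed under 3200001D21Rik) and in Samd4 got no adjusted p from DESeq2 in most of these fits. The calls near 4930534H03Rik, Nr3c1, St3gal1 and Pla2g2f were each lost in 3 to 6 of the 6 fits.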

How the data were processed

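ATAC-seq tags were analysed in 3 oil and 3 tamoxifen libraries. The deposited table holds estimated counts of tags per peak, which the authors made with Bowtie2 alignment to mm10 and HOMER peak calling, merging and annotation; per the file headers at most 3 tags per position were counted, and values come in steps of 0.5. Repeat names are those of the HOMER annotation. Tags were rounded to whole numbers and all 175929 peaks were fitted with DESeq2 1.42.0 (R 4.3.3). Benjamini-Hochberg adjustment was made with the default DESeq2 filter on mean tags, which can leave low peaks without an adjusted p. Calls needed an adjusted p under 0.05 and a fold change over 2. Normalised tags are tags divided by DESeq2 size factors, and log2 levels add 1. The fit was tested on simulated data. The members and lists were chosen with earlier results of these data known. Named peaks were the 12 higher and at most 8 lower called members with the smallest adjusted p and groups apart (1 per 5000 bp), the 3 highest MIR and 3 highest L2 peaks, and the called member, or else the one with the smallest p, of each gene list. Motifs were searched in the central 200 bp on both strands. The alternatives were other size factors, GC-dependent offsets, edgeR 4.0.16, a filter at a mean of 20 tags, distal peaks only, other thresholds, a replicate block and leaving out each library. The 191 peaks without a reference match had no sequence. In the reference, 5.32% of member centres were masked as repeats, 6.57% of centres outside repeats and 64% of rodent SINE centres, so this masking does not mark the MIR and L2 labels. A marker list and the name of a construct are not reported here.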

Additional observations from a re-analysis of the deposited data

How the results depend on the processing

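The 18 calls among members stayed at 18 in number with TMM factors, factors from tags in peaks, factors from all tags or distal peaks only, 20 with GC-dependent normalisation, 17 with the filter at 20 tags and 21 at an adjusted p under 0.1. They became 33 with edgeR and 33 with no fold limit, and 6 to 44 when 1 library was left out. The replicate block on libraries 1 and 4 left 1 call, against 4 in the same 4 libraries unpaired, a fit chosen after seeing the data. Same-numbered libraries correlated at -0.0468 and 0.0506 in their deviations from the group means, so the numbers were not taken to pair samples. The median change of members stayed within -0.041 and 0.006 under the settings run. The difference in the share of tags in members ranged from -0.0155 to 0.0098 percentage points without 1 library, and its sign changed without oil library 1 or 2 or tamoxifen library 4. The level gap of -0.150 to peaks outside repeats turned to 0.206 against rodent SINE and 0.132 against LINE L1 peaks, which are other comparison groups. It was -0.155 to -0.144 with 1 library left out, where the smallest possible p is 0.0625. Abcb4 lost its call with edgeR (adjusted p = 0.0859) and with factors from all tags (DESeq2 adjusted p = 0.118), and Abcb4 and Nr3c1 fell to a log2 fold change of 0.99, under the fold limit, with factors from tags in peaks and with distal peaks only. Adjusted p-values that DESeq2 gave as NA were not counted as lost. The cause of these changes was not tested. Members held a median of 38 to 49 tags per library, which limits the precision of single members.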
